A study of Mus musculus with 12 samples.

Results

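UBF is the nucleolar transcription factor encoded by Ubtf, and its knockdown was examined across all genes in NIH3T3, a mouse fibroblast line that grows without limit in culture. The comparison took all 12 arrays of the series: 6 from cells that received an siRNA against UBF and 6 from control cells. The knockdown arrays were 3 with the siRNA named oligo 1 and 3 with the siRNA named oligo 2. The controls were 3 arrays of Mock cells, given the Dharmafect 2 transfection reagent with no siRNA, and 3 of cells given an siRNA named for EGFP (sirEGFP), a fluorescent protein of jellyfish. The siRNA dose was 40 nM throughout, with collection of RNA at 48 h. The series' design text calls the 3 arrays of a group biological replicates. No group has a rescue, and what limits each group as a model beyond the line itself is not given in the sources used here.

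UBF binds along the ribosomal RNA genes in the nucleolus, where it helps RNA polymerase I (Pol I) start transcription and keeps the active gene copies in an open chromatin state. The ribosomal RNA made there is cut and modified, with small nucleolar RNAs (snoRNAs) as guides, and assembled with ribosomal proteins into ribosomes. Cells that make fewer ribosomes are known, as background, to stabilise p53 through free ribosomal proteins and to slow their cell cycle. The arrays read levels of messenger RNAs and small RNA genes, and the rate of ribosomal RNA synthesis is not something they measure.

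The deposited values are log2 expression values, so a difference of 1 is a doubling. For 19938 genes with 1 probe set each, the mean of the 2 knockdown groups was set against the mean of the 2 control groups, and genes with an adjusted p under 0.05 count as called (limma, two-sided). A stricter second test asked that each siRNA, taken alone, differ from the mean of the 6 control arrays in the same direction. It used the larger of the 2 p-values, and since both siRNAs were set against the same 6 controls, error in those controls entered both. Arrays were much alike in overall level, with medians between 5.38 and 5.54. The deposited values carry no measure of depth or background, so precision is set by the number of arrays. Of 16 fibroblast markers, which had a median level of 8.07, 2 passed the pooled test: Prrx1 (0.63 ± 0.094, SE) and Pdgfra (0.50 ± 0.12). Prrx1 changed by 0.24 with oligo 1 and 1.02 with oligo 2, and Pdgfra by 0.0925 and 0.90. The count of 2 was 1 without Mock array 2, Mock array 3, sirEGFP array 2, oligo 1 array 1, oligo 1 array 3, oligo 2 array 1 or oligo 2 array 3 and 4 without oligo 1 array 2. The median levels of the markers of fat, muscle, epithelial, macrophage and endothelial cells lay between 4.67 and 5.12, against 5.65 for all genes. On these lists Fabp4 (0.78 ± 0.13), a fatty acid carrier of adipocytes and macrophages, and Csf1r (0.43 ± 0.11), a macrophage growth factor receptor, passed, and the other 49 markers did not. Fabp4 changed by 0.13 with oligo 1 and 1.43 with oligo 2, and Csf1r by 0.83 and 0.037. Csf1r lost its call in 7 of the 12 fits that left out an array. The summed level of each of these 5 lists overlapped between knockdown and control arrays, and its part in the results was not tested.

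Ubtf was lower on every knockdown array. Ubtf read 8.54, 8.63 and 8.41 in Mock cells, 8.68, 8.31 and 8.04 in sirEGFP cells, 7.998, 7.74 and 7.64 under oligo 1 and 7.90, 7.83 and 7.49 under oligo 2. The highest knockdown array stood below the lowest control array, sirEGFP array 3, by a narrow margin. The mean level differed from that of the controls by a similar amount under each siRNA, -0.64 with oligo 1 and -0.70 with oligo 2, and the pooled change of -0.67 ± 0.12 (SE, n = 6 against 6 arrays) was a fall of 37.2% (adjusted p = 0.0041). An exact permutation test over every way to split the arrays gave p = 0.00216, two-sided, the smallest that this design allows. Ubtf did not pass the stricter test for both siRNAs (adjusted p = 0.111). With the sirEGFP arrays as the control alone, its change was -0.58 and did not pass the pooled test (adjusted p = 0.0526).

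Of the 19938 genes, 982 (4.93%) passed the pooled test: 609 were higher on the knockdown arrays (3.05%) and 373 lower (1.87%). The changes were modest. The median called gene moved by 0.47 upward or by -0.47 downward, and 34 changed by at least 2-fold, 27 of them upward. The median control level was 8.64 for genes that fell and 7.43 for genes that rose, both above the 5.62 of all genes. Among protein-coding genes, those that rose were long: their median genomic span in RefSeq was 46.1 kb, against 19.3 kb for those that fell and 23.3 kb for all genes measured at or above the median level. All 6 knockdown arrays lay beyond all 6 control arrays for 354 of the called genes, in a set where 423 of all genes (2.12%) did so.

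**Figure D1:**
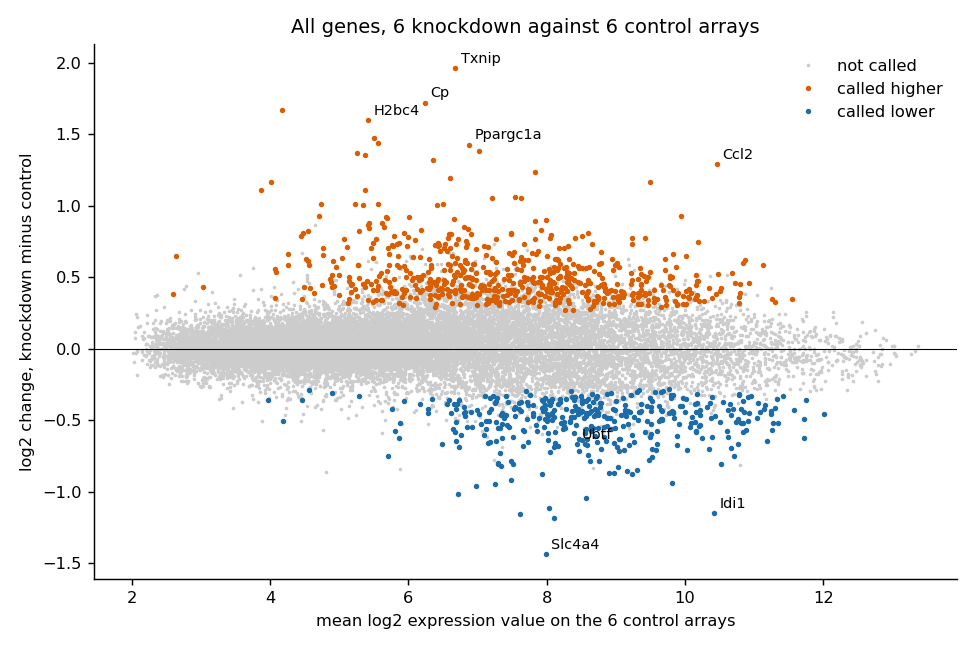
Each point is 1 of the 19938 genes, with its mean log2 expression value on the 6 control arrays on the horizontal axis and the log2 change, knockdown minus control, on the vertical axis; orange and blue points mark the 609 genes called higher and the 373 called lower. Txnip and Cp stand highest among the labelled genes and Slc4a4 lowest, and Idi1 falls from among the bright genes.

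The pooled test does not require that both siRNAs act, and for many genes they differed. In the direct test of oligo 1 against oligo 2, 732 genes (3.67%) were called, 459 of them with the higher level under oligo 2. This count was 328 without oligo 2 array 3, 373 without oligo 1 array 3, 402 without oligo 2 array 2 and 451 without oligo 2 array 1. The replicate numbers paired oligo 1 with oligo 2 in the data, and with the number as a block the count was 1094, including all 732. Genes called only with the block included Lxn, Idi1, Gla, Il6, Vcan and Mlkl. Counts by list of genes that differed between the siRNAs are without the block. Among the 982 genes of the pooled test, 206 (21%) were among the 732. The stricter test called 35 genes (0.176%), 27 higher (0.135%) and 8 lower (0.0401%), all within the 982. The remaining 749 genes passed neither the stricter test nor the test of a difference. Some of them still passed for each siRNA when its p-values were adjusted on their own, among them Ubtf (adjusted p = 0.0185 with oligo 1 and 0.0114 with oligo 2) and the mitotic gene Birc5 (0.000369 and 0.00673). The count for both siRNAs depended on the arrays: without oligo 1 array 2 it was 42, and leaving out any other single array gave between 7 and 23. Without oligo 1 array 3 it was 7, and it was 9 without Mock array 3, sirEGFP array 3 or oligo 2 array 2 or 3, 14 without oligo 2 array 1, 16 without Mock array 2, 18 without Mock array 1, 19 without sirEGFP array 2 or oligo 1 array 1 and 23 without sirEGFP array 1. The pooled count of 982 fell to 591 without oligo 1 array 3, to 621 without sirEGFP array 2, to 635 without Mock array 1 and to 645 without oligo 2 array 3.

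Since both siRNAs share their controls in that test, each was also set against only 1 of the 2 control groups. Which siRNA took which group was arbitrary, so the controls were then exchanged. Calls are out of 19938 genes, and the overlap of unrelated sets of these sizes was not worked out. With oligo 1 against Mock and oligo 2 against sirEGFP, 60 genes were called in the same direction, which is 10.9% of the 549 called for oligo 1 and 13.3% of the 451 called for oligo 2, and 8 genes were called in opposite directions. With the controls exchanged, 82 genes were called in the same direction, 16.6% of the 493 called for oligo 1 and 9.67% of the 848 called for oligo 2, and 9 in opposite directions. The stricter test then called 10 and 4 genes, of which 9 and 4 were among the 35.

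The gene that changed most with both siRNAs was Txnip, which encodes an arrestin-like protein that binds thioredoxin, limits glucose uptake and is switched on by sugar-sensing transcription factors. Txnip read 6.36, 6.85 and 6.91 in Mock cells, 6.29, 6.86 and 6.80 in sirEGFP cells, 8.20, 7.997 and 8.54 under oligo 1 and 9.03, 8.79 and 9.26 under oligo 2. Every knockdown array was above every control array by more than 1 log2 unit, and oligo 2 gave the higher level. The pooled change was 1.96 ± 0.14, a 3.89-fold rise (adjusted p = 5.01e-06), made up of 1.57 with oligo 1 and 2.35 with oligo 2, and the siRNAs differed (adjusted p = 0.0383). The change passed the stricter test (adjusted p = 0.00147) and did so in each of the 12 fits that left out an array. Sugar-responsive promoters are known to carry CACGAG-like E-box pairs a few bases apart, and the Txnip promoter is shown for such a pair. The stretch runs from 250 bases before to 30 bases after the gene's start in RefSeq (assembly GRCm38.p6), 5′ to 3′ on the gene's strand, with the repeat (CACGAG, any 5 bases, CACGAG) and both CCAAT boxes (CCAAT or its complement ATTGG) in capitals.
Txnip promoter, chr3:96557707-96557986, + strand: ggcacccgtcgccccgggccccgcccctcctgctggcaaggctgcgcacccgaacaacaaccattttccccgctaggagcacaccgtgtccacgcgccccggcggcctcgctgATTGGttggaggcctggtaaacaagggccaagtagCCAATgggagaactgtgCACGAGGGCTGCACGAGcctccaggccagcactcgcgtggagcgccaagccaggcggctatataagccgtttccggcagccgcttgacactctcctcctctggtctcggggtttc
The repeat starts 85 bases before the start of the gene. Among 32851 promoter windows of 300 bases in the RefSeq table it was found on either strand in 1, that of Txnip, while a single CACGAG was found in 6.47%. These letters were chosen after the sequence had been seen, and the match is a description. Of the other 35 measured genes for glucose sensing and glycolysis, Pfkm rose (0.41 ± 0.11, adjusted p = 0.049, and lost the call in 9 of 12 fits that left out an array) and Bnip3, a mitophagy receptor, fell (-0.94 ± 0.11, adjusted p = 0.000258), with -0.30 under oligo 1 and -1.58 under oligo 2. Arrdc4, a paralogue of Txnip and another target of the sugar-sensing factors, did not pass (-0.019 ± 0.092, adjusted p = 0.962); it was looked up after the result for Txnip was known.

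Cp encodes ceruloplasmin, the copper-carrying ferroxidase. Cp read 6.23, 6.58 and 6.16 in Mock cells, 6.18, 6.19 and 6.13 in sirEGFP cells, 7.13, 7.90 and 7.43 under oligo 1 and 8.32, 8.27 and 8.73 under oligo 2. Its arrays formed 3 steps, with oligo 2 above oligo 1 and oligo 1 above all controls, and the pooled change was 1.72 ± 0.13 (3.29-fold, adjusted p = 7.18e-06; 1.24 with oligo 1 and 2.20 with oligo 2). Lxn encodes latexin, an inhibitor of carboxypeptidases. Lxn read 7.35, 7.31 and 7.20 in Mock cells, 7.16, 7.17 and 7.04 in sirEGFP cells, 8.06, 8.28 and 7.75 under oligo 1 and 8.52, 8.58 and 8.33 under oligo 2. All knockdown arrays lay above the controls, and the pooled change was 1.05 ± 0.10 (adjusted p = 5.39e-05). Plscr2 encodes a phospholipid scramblase. Plscr2 read 4.98, 4.79 and 5.77 in Mock cells, 5.61, 5.89 and 5.99 in sirEGFP cells, 6.47, 7.12 and 6.82 under oligo 1 and 7.07, 7.37 and 7.06 under oligo 2. Mock arrays 1 and 2 were the lowest, and the change of 1.48 ± 0.16 (adjusted p = 0.000113) still separated the 6 knockdown arrays from the 6 controls.

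**Figure D2:**
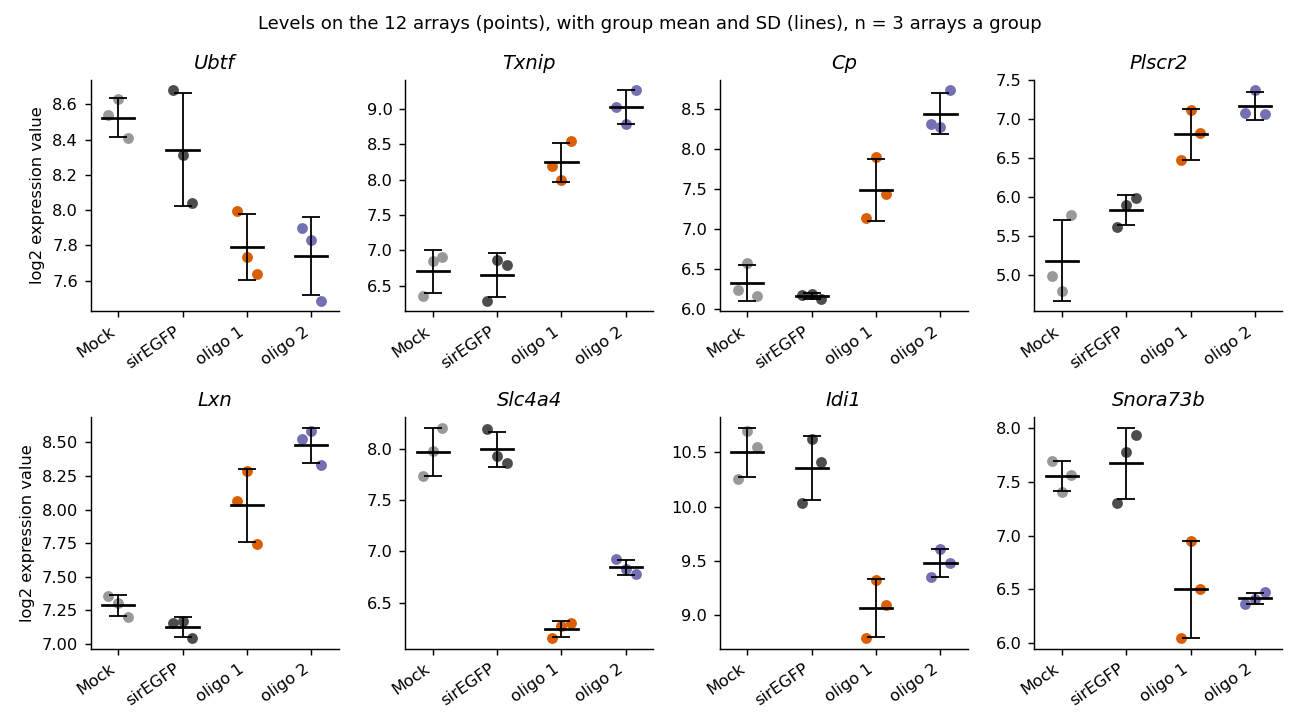
Log2 expression values of 8 genes on the 12 arrays (points), with the mean and SD of each group of 3 arrays (lines); the horizontal axis gives the group and each vertical axis has its own range. Ubtf, Slc4a4, Idi1 and Snora73b are lower and Txnip, Cp, Plscr2 and Lxn higher on all 6 arrays of both siRNAs than on any Mock or sirEGFP array.

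Mgst1, Nfe2l2, Ppargc1a, Foxo3 and Pik3r1 were also among the genes that rose with both siRNAs. Mgst1, a membrane-bound glutathione transferase, rose by 1.38 ± 0.16 (adjusted p = 0.000158). Mgst1 read 7.08, 6.78 and 6.96 in Mock cells, 6.82, 7.03 and 7.41 in sirEGFP cells, 7.84, 8.87 and 8.20 under oligo 1 and 8.57, 8.22 and 8.67 under oligo 2. No control array reached a knockdown array. Nfe2l2 encodes NRF2, the transcription factor of the antioxidant response. Nfe2l2 read 10.19, 10.02 and 10.20 in Mock cells, 10.29, 10.18 and 10.20 in sirEGFP cells, 10.79, 10.57 and 10.74 under oligo 1 and 11.10, 11.17 and 11.17 under oligo 2. Its spread within groups was small, and it rose by 0.74 ± 0.077 (adjusted p = 0.000105), more with oligo 2 (adjusted p = 0.0326 for the difference). Ppargc1a encodes PGC-1alpha, a coactivator of mitochondrial and fasting genes. Ppargc1a read 6.89, 6.98 and 6.97 in Mock cells, 6.58, 7.12 and 6.72 in sirEGFP cells, 8.49, 9.17 and 8.30 under oligo 1 and 7.54, 8.31 and 8.004 under oligo 2. The rise of 1.43 ± 0.16 (adjusted p = 0.000129) was 1.78 with oligo 1 and 1.08 with oligo 2, and the difference between the siRNAs did not pass (adjusted p = 0.107, or 0.0146 with the replicate number as a block). Foxo3, a transcription factor of stress and fasting responses, and Pik3r1, the regulatory subunit of PI3 kinase, rose by 0.55 and 0.80. The call for both siRNAs was kept by Mgst1 and Pik3r1 in 9 of the 12 fits that left out an array, by Ppargc1a in 4 and by Nfe2l2 and Foxo3 in 1.

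The remaining genes that rose with both siRNAs had varied roles. Sgpl1, the lyase that breaks down sphingosine phosphate, rose by 0.79 ± 0.085 and Asah2, a neutral ceramidase, by 0.67 ± 0.079 (adjusted p = 0.000115 and 0.000232). Of 27 genes of sphingolipid metabolism 4 rose, these 2 and the genes of a palmitoyltransferase subunit, Sptlc2 (0.33 ± 0.075, adjusted p = 0.0184), and a ceramide synthase, Cers2 (0.51 ± 0.12, adjusted p = 0.0273). Cers2 lost its call in 8 of the 12 fits that left out an array, and in the test for both siRNAs Sgpl1 kept its call in 5 and Asah2 in 4. Pld1, a phospholipase D, rose by 0.83 ± 0.10. Igfbp7, a secreted binding protein of insulin-like growth factors, rose by 0.76, and Entpd5, a nucleotide hydrolase of the endoplasmic reticulum, by 0.72. Ccl7, a monocyte-attracting chemokine, rose by 1.16 ± 0.12 and was the exception among the 35 in that its arrays overlapped. Ccl7 read 10.15, 9.49 and 9.59 in Mock cells, 9.24, 9.14 and 9.39 in sirEGFP cells, 10.60, 10.29 and 10.06 under oligo 1 and 11.03, 11.02 and 10.99 under oligo 2. The highest control array, Mock array 1, was above oligo 1 array 3. Entpd5 kept the call for both siRNAs in 7 of the 12 fits that left out an array, Pld1 in 2 and Igfbp7 and Ccl7 in 1. The others that rose were Fam214a, Rmdn2, N4bp2, Dhx40, Tomm34, Klhl42, Ube2r2, Sntb2, Siae, Steap2, Dync2li1 and H2bc4.

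Of the genes that fell with both siRNAs, Slc4a4, a sodium bicarbonate cotransporter, fell most. Slc4a4 read 7.73, 7.98 and 8.20 in Mock cells, 8.19, 7.93 and 7.86 in sirEGFP cells, 6.15, 6.28 and 6.30 under oligo 1 and 6.92, 6.83 and 6.78 under oligo 2. The lowest control array was above the highest knockdown array by most of a log2 unit, and oligo 1 lowered it further than oligo 2 (adjusted p = 0.0198 for the difference). The pooled change of -1.44 ± 0.095 was a fall of 63.1% (adjusted p = 3.83e-06), and the call for both siRNAs was kept in each of the 12 fits that left out an array. Fancb, a subunit of the Fanconi anaemia core complex, read lower on each knockdown array (-1.05 ± 0.11, adjusted p = 0.000113), as did Mre11a, the nuclease of the MRN complex at DNA breaks (-0.71 ± 0.092, adjusted p = 0.000531). Cmss1, a conserved protein counted here with the ribosome biogenesis factors, fell by 0.65 ± 0.084. The other 4 were Idi1, Snora73a, Snora73b and the clone-named gene 6330403K07Rik (-0.82). Of the 12 fits that left out an array, 6330403K07Rik kept the call for both siRNAs in 11. Idi1 kept it in 5, Fancb in 3 and Mre11a and Cmss1 in 1.

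**Figure D3:**
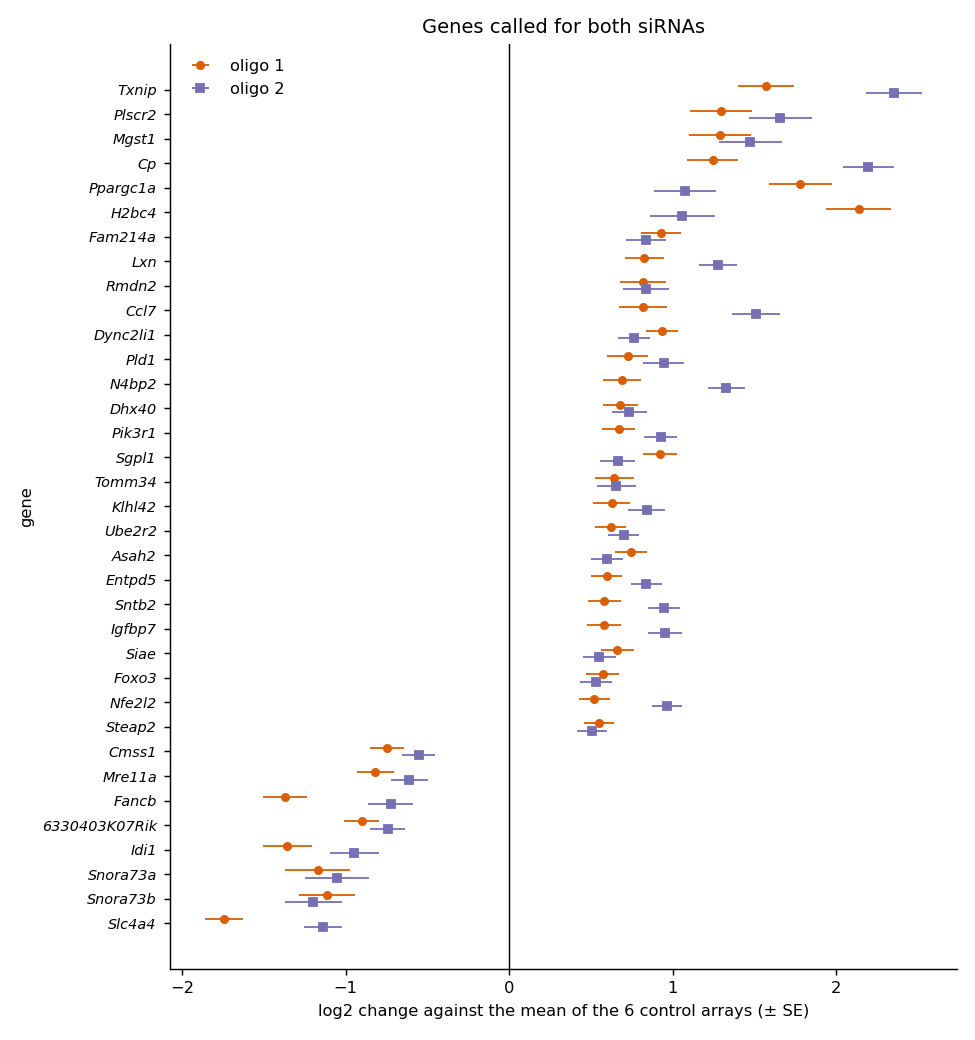
The 35 genes called for both siRNAs, with the log2 change of oligo 1 (circles) and of oligo 2 (squares) against the mean of the 6 control arrays on the horizontal axis and bars of 1 SE; genes are ordered by the change of the weaker siRNA. Txnip, Cp, Lxn and Slc4a4 kept this call in all 12 fits that left out an array, while 11 of the genes kept it in 1 of those fits.

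Calls by gene list are given next, for the pooled test unless stated, beside the shares among all genes: 3.05% called higher and 1.87% called lower, with a median change of 0.016. An unadjusted p under 0.05, given for some lists, was found for 3278 of the 19938 genes (16.4%). The lists were chosen with results of these data known, so the counts describe the data and are not tests.

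Of 23 measured genes of Pol I transcription, Ubtf alone passed, and the median change was -0.020; 6 had an unadjusted p under 0.05. The next smallest p-values belonged to Baz2a, the large subunit of the nucleolar remodelling complex (0.49 ± 0.14, adjusted p = 0.0675), and Polr1d, a subunit shared by Pol I and Pol III (-0.21 ± 0.075, adjusted p = 0.133). Baz2a passed without sirEGFP array 1 (adjusted p = 0.0106) or oligo 1 array 2 (adjusted p = 0.0191). The count of 1 was 2 without Mock array 3, sirEGFP array 1 or oligo 1 array 2. Of 71 ribosome biogenesis factors 8 fell, among them Wdr12, which acts in maturation of the large subunit (-0.43 ± 0.089, adjusted p = 0.0118), and the list's median was -0.11. This count was 2 without sirEGFP array 2 or oligo 1 array 3, 3 without Mock array 2, Mock array 3 or oligo 2 array 3, 4 without Mock array 1, sirEGFP array 3 or oligo 2 array 2 and 5 without oligo 1 array 1 or oligo 2 array 1. Among 56 cytosolic ribosomal proteins, whose median level of 12.11 made them some of the brightest genes, Rplp2 (-0.38 ± 0.079, adjusted p = 0.0119) and Rpl30 (-0.46 ± 0.12, adjusted p = 0.039) fell. Rpl30 lost its call in 8 of the 12 fits that left out an array, and the count of 2 was 1 without Mock array 1, Mock array 3, sirEGFP array 2, sirEGFP array 3, oligo 1 array 1, oligo 1 array 3, oligo 2 array 1 or oligo 2 array 2 and 5 without oligo 1 array 2. The mean of the whole ribosomal protein list still ran from -0.24 to -0.10 over the 6 knockdown arrays and from -0.071 to 0.10 over the 6 controls (log2 difference from the control mean), so its 6 knockdown arrays stood below its 6 controls by a small amount.

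The snoRNAs, which mainly guide the modification of ribosomal RNA, had the lowest median change of the 46 lists, -0.57. Of 51 measured, 23 fell, and 36 had an unadjusted p under 0.05. The 2 called for both siRNAs were Snora73a and Snora73b, in 2 and 4 of the 12 fits that left out an array. Both are snoRNAs of the H/ACA class that take part in cutting the precursor of the small subunit RNA. Snora73b read 7.69, 7.41 and 7.57 in Mock cells, 7.30, 7.78 and 7.94 in sirEGFP cells, 6.05, 6.95 and 6.50 under oligo 1 and 6.37, 6.41 and 6.47 under oligo 2. The knockdown arrays were all below the controls. Snora73b fell by 1.15 ± 0.14 (adjusted p = 0.000312), and the change of Snora73a was -1.11 ± 0.16 (adjusted p = 0.0012). These 2 genes are near-identical copies, so their probe sets may read the same RNA and they cannot be counted as separate results. Snord52, a C/D guide, fell by 1.19 ± 0.17 (adjusted p = 0.000916), and Snora21 by 0.69 ± 0.13 (adjusted p = 0.00727). The snoRNA values varied widely between arrays of the same group: the list's mean ran from -0.95 to -0.28 over the 6 knockdown arrays and from -0.30 to 0.39 over the 6 controls, and Mock array 2 and sirEGFP array 2 were as low as oligo 1 array 2. The number called was 9 without Mock array 1, 11 without Mock array 3, sirEGFP array 3 or oligo 2 array 2 and 13 without oligo 1 array 3, against 23 with all arrays. Of 15 further small non-coding RNAs none was called (limma; 5 at an unadjusted p under 0.05), and 1 was called without oligo 1 array 1 (Rny3) or oligo 1 array 3 (Rny1). Their mean ran from -0.33 to -0.10 over the 6 knockdown arrays and from -0.089 to 0.16 over the 6 controls. Of 300 microRNA genes, Mir455 rose (0.33 ± 0.081) and Mir125b-1 fell (-0.36 ± 0.10), a share below that among all genes, and each lost its call in 9 of the 12 fits that left out an array. Recovery of short RNAs was not measured on these arrays, and its part in the snoRNA values was not tested.

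Genes of mitosis formed the list with the most genes lower. Of 61 genes of G2 and mitosis, 32 fell, with a median change of -0.41; 48 passed an unadjusted p under 0.05. The fall was uneven between the siRNAs, with medians of -0.68 with oligo 1 and -0.13 with oligo 2, and 18 of the 61 differed between them, in each case with the lower level under oligo 1. Birc5 encodes survivin of the chromosomal passenger complex. Birc5 read 11.24, 11.30 and 11.30 in Mock cells, 11.18, 11.13 and 10.98 in sirEGFP cells, 10.40, 10.34 and 10.44 under oligo 1 and 10.82, 10.65 and 10.61 under oligo 2. Both siRNAs put it below all controls (-0.64 ± 0.076, adjusted p = 0.000246). Spdl1 encodes Spindly, which recruits dynein to kinetochores. Spdl1 read 7.499, 7.42 and 7.83 in Mock cells, 7.11, 7.55 and 7.63 in sirEGFP cells, 6.36, 6.92 and 6.75 under oligo 1 and 6.60, 6.88 and 6.68 under oligo 2. Its change was nearly equal with the 2 siRNAs (-0.83 and -0.79; pooled -0.81 ± 0.12, adjusted p = 0.00163). Prc1, which bundles the central spindle, fell by 0.79 ± 0.10, and by more with oligo 1 (-1.10) than with oligo 2 (-0.48; adjusted p = 0.0263 for the difference). Tpx2, an activator of Aurora A, changed by -1.11 with oligo 1 and -0.062 with oligo 2 (adjusted p = 0.000499 for the difference). None of these genes passed the stricter test for both siRNAs (limma), although 7 of the 61 had all knockdown arrays below all controls. The mean of the list ran from -0.68 to -0.155 over the 6 knockdown arrays and from -0.147 to 0.15 over the 6 controls. The oligo 2 arrays thus lay barely below sirEGFP array 3. The count of 32 became 19 without sirEGFP array 2 and 20 without Mock array 3 or oligo 1 array 3.

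Promoters of late cell cycle genes are known to carry CCAAT boxes and, near the start, a cell cycle homology region with the letters TTTGAA. The promoters of Spdl1 and Prc1 are shown as 2 genes of this list that fell and carry both (250 bases before to 30 after the start, RefSeq, GRCm38.p6, 5′ to 3′ on the gene's strand). Capitals mark CCAAT and TTTGAA or their complements ATTGG and TTCAAA.
Spdl1 promoter, chr11:34833612-34833891, - strand: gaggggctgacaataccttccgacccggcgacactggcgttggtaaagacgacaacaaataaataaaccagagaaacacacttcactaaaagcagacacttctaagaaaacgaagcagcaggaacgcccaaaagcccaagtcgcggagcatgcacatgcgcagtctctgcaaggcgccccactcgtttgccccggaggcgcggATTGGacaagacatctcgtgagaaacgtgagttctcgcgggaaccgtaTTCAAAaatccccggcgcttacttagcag
Prc1 promoter, chr7:80294201-80294480, + strand: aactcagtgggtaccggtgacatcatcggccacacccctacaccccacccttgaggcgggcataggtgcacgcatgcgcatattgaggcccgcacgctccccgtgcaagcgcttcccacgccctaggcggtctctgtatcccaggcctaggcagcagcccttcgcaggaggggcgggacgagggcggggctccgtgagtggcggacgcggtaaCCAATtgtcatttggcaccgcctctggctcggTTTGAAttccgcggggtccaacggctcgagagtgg
In both, the TTTGAA lies at the start of the gene, at bases 252 to 257 of the window in Spdl1 and 246 to 251 in Prc1, with the CCAAT 47 and 37 bases before the start. Within 300 bases (250 before to 50 after the start, both strands) TTTGAA was found in 68.4% of the 57 windows of this list, against 14.8% of windows of all genes measured and 17.9% of all promoters in the table. CCAAT was found in 73.7%, against 37.4% in either comparison set. Both motifs were present in 57.9% of the list's windows and 5.85% of those of genes measured. Among all genes called lower, 15% of windows had both, against 3.59% for those called higher. Within the mitosis list the share with both was 53.6% for the members that fell (15 of 28 windows), so the motifs did not mark these members within their list.

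Genes of DNA replication were lower mostly under oligo 1. Of 51 genes of G1/S and DNA replication, 8 fell, and the medians were -0.48 with oligo 1 and 0.023 with oligo 2. Oligo 1 and oligo 2 differed for 19 of the 51, each lower with oligo 1. Orc2, of the origin recognition complex, fell alike with both (-0.54 and -0.48; pooled -0.51 ± 0.10, adjusted p = 0.00801), while Gins1, of the replicative helicase, changed by -0.89 and -0.32 (adjusted p = 0.0124 for the difference). The count of 8 was 2 without sirEGFP array 2, 3 without oligo 1 array 3, 4 without Mock array 1, Mock array 3 or oligo 2 array 2 and 5 without Mock array 2, sirEGFP array 3, oligo 2 array 1 or oligo 2 array 3. Of 44 DNA repair and checkpoint genes 10 fell and 1 rose. Fancb read 8.43, 8.50 and 8.60 in Mock cells, 8.33, 8.76 and 8.80 in sirEGFP cells, 6.90, 7.48 and 7.23 under oligo 1 and 7.81, 7.77 and 7.96 under oligo 2. The knockdown and control arrays did not overlap, and oligo 1 gave the lower level (adjusted p = 0.0329 for the difference). Blm, a helicase of recombination, changed by -0.75 and -0.13 (pooled adjusted p = 0.00714), and 14 of the 44 differed between the siRNAs, each lower with oligo 1. The 11 calls became 6 without Mock array 1, sirEGFP array 2, oligo 1 array 3 or oligo 2 array 3 and 7 without Mock array 3, sirEGFP array 3 or oligo 2 array 1.

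Replication-dependent histones are made in S phase from clustered genes whose transcripts are normally not polyadenylated. Of 28 measured, 7 fell and 2 rose, with a median of -0.27. H2bc3 fell by 0.65 ± 0.095 (adjusted p = 0.00131) and H2bc14 by 0.71 ± 0.12 (adjusted p = 0.00351). H2bc4 went the other way. H2bc4 read 5.75, 5.05 and 5.77 in Mock cells, 5.80, 5.001 and 5.14 in sirEGFP cells, 7.72, 7.68 and 7.26 under oligo 1 and 6.58, 6.18 and 6.67 under oligo 2. All knockdown arrays were above the controls, oligo 1 more than oligo 2 (2.14 and 1.06, adjusted p = 0.0157 for the difference), and the pooled rise of 1.60 ± 0.16 (adjusted p = 0.000102) was among the largest of all genes. H2bc4 kept the call for both siRNAs in 2 of the 12 fits that left out an array. The other histone that rose, H1f2 (0.63 ± 0.11, adjusted p = 0.00418), was named after its value had been seen. Histone genes are close copies of each other, and which copy a probe set reads is uncertain.

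**Figure D4:**
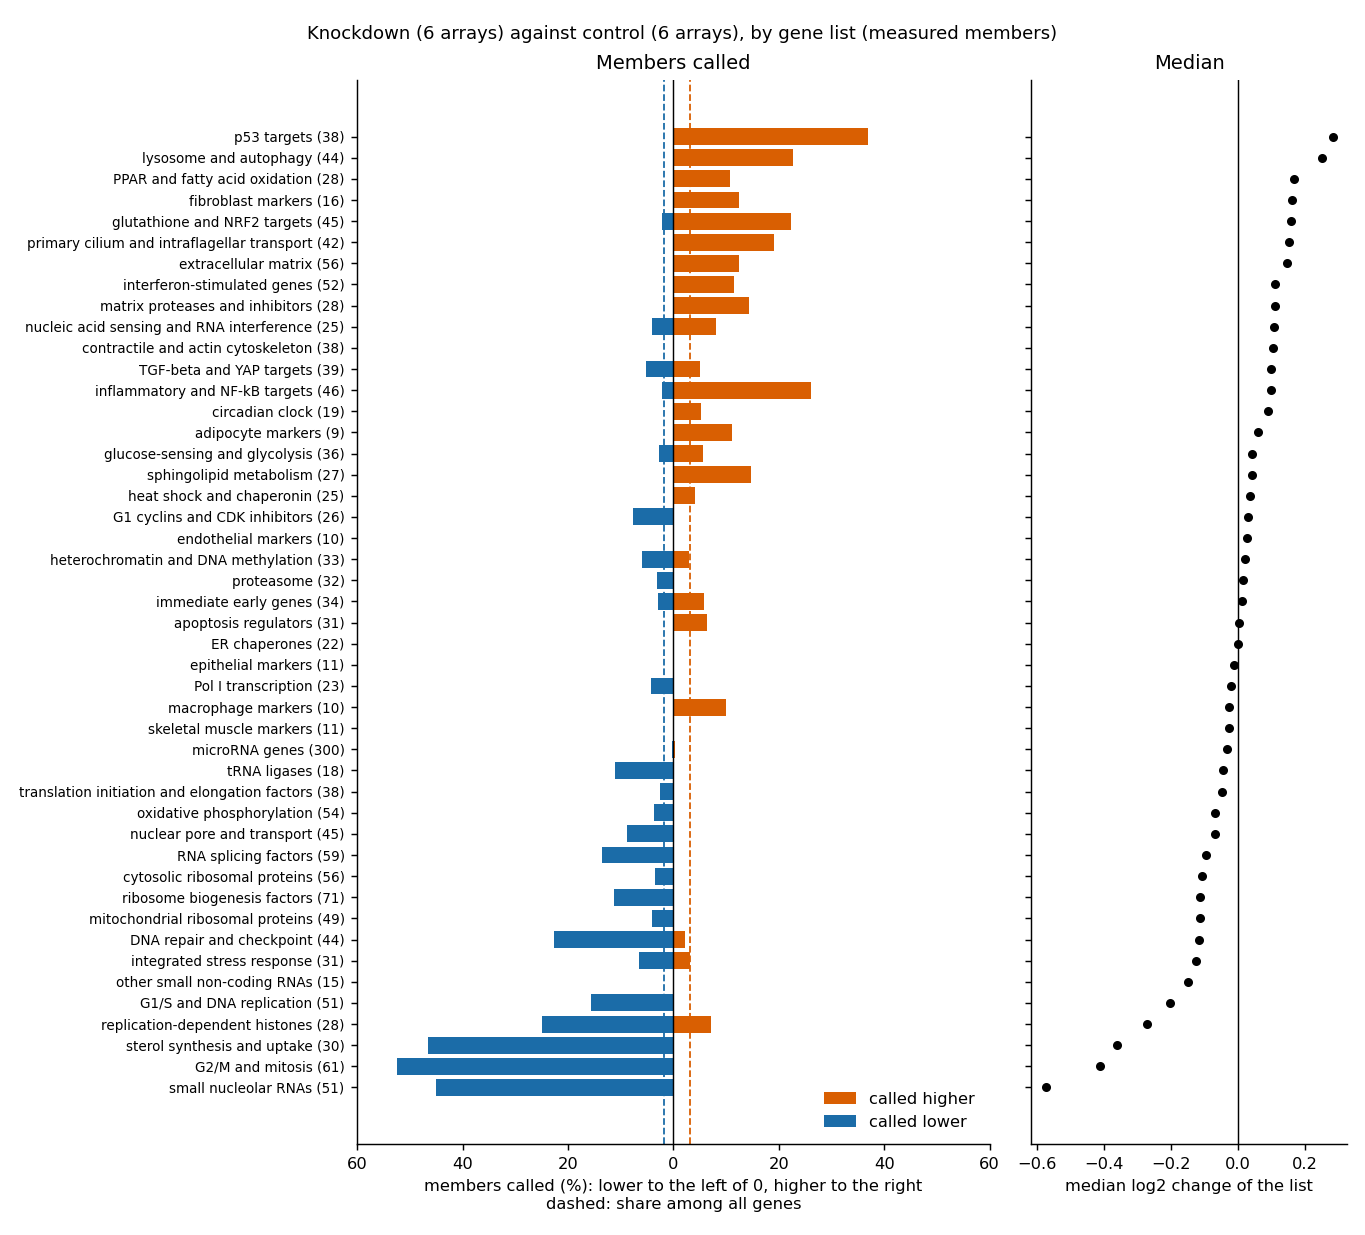
Left, the share of measured members (number in brackets) called higher (to the right of 0) and lower (to the left of 0) in the pooled test for 46 gene lists, with dashed lines at the shares among all genes, 3.05% and 1.87%; right, the median log2 change of each list. The snoRNA, mitosis and sterol lists have the largest shares called lower and the p53 target list the largest share called higher.

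Targets of p53 rose: 14 of 38 were called higher and the others did not pass, with a median change of 0.28. Mdm2 encodes the ubiquitin ligase that degrades p53 and is itself a target. Mdm2 read 9.14, 8.84 and 9.29 in Mock cells, 9.32, 9.18 and 9.63 in sirEGFP cells, 10.02, 9.90 and 10.31 under oligo 1 and 9.86, 9.73 and 10.24 under oligo 2. Each knockdown array exceeded each control array and the siRNAs gave similar changes (0.84 and 0.71), with a pooled rise of 0.78 ± 0.12 (adjusted p = 0.00198). Other targets were raised more by oligo 2. Fas, the death receptor, changed by 0.37 and 1.65 (pooled adjusted p = 0.000613), and Trp53inp1, a cofactor of p53, by 0.54 and 1.47 (pooled adjusted p = 0.000158). Trp53inp1 read 5.86, 5.86 and 6.20 in Mock cells, 6.68, 6.88 and 6.998 in sirEGFP cells and 6.94, 7.13 and 6.795 under oligo 1. Its oligo 1 arrays thus lay above Mock but overlapped sirEGFP. Cd80, a costimulatory ligand counted here with the targets, changed by 0.58 and 2.15, and the differences between the siRNAs passed for all 3 (adjusted p between 0.000972 and 0.00432). Of the 38, 8 differed between the siRNAs, and no target passed the stricter test for both (limma; 21 of the 38 had a pooled unadjusted p under 0.05). The mean of the list ran from 0.14 to 0.49 over the 6 knockdown arrays and from -0.060 to 0.076 over the 6 controls, so the groups did not overlap. The count of 14 was 8 without sirEGFP array 2 or oligo 2 array 3 and 9 without Mock array 1, Mock array 3, oligo 1 array 3 or oligo 2 array 1. Among 31 apoptosis regulators, Mlkl, the executor of necroptosis (0.36 ± 0.075, adjusted p = 0.0127), and Casp6, an effector caspase (0.37 ± 0.078, adjusted p = 0.0133), rose, and without oligo 1 array 2 the count was 5. For Mlkl the oligo 2 arrays (10.19, 10.26 and 10.18) overlapped the sirEGFP arrays (10.07, 10.21 and 10.26).

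Of 30 genes of sterol synthesis and uptake 14 fell, and the medians were -0.33 with oligo 1 and -0.30 with oligo 2; the siRNAs differed for 2 of the 30. Idi1 isomerises the isoprenoid building block of cholesterol. Idi1 read 10.25, 10.69 and 10.55 in Mock cells, 10.03, 10.62 and 10.41 in sirEGFP cells, 8.79, 9.32 and 9.10 under oligo 1 and 9.35, 9.61 and 9.48 under oligo 2. Both sets of knockdown arrays were below the controls, and the fall was 1.15 ± 0.12, or 55% (adjusted p = 0.000113). Stard4, a sterol carrier, fell by 0.54 ± 0.078 (adjusted p = 0.0012), Sqle, squalene epoxidase, by 0.45 ± 0.078 (adjusted p = 0.00383), and Elovl6, a fatty acid elongase of the same regulon, by 0.51 ± 0.090 (adjusted p = 0.0041). The list's mean ran from -0.56 to -0.16 over the 6 knockdown arrays and from -0.31 to 0.24 over the 6 controls, and sirEGFP array 3 was below 3 of the knockdown arrays. The count of 14 was 9 without Mock array 2, sirEGFP array 1, sirEGFP array 2 or oligo 2 array 3. Sterol promoters are known to pair sites for the SREBP factors with CCAAT boxes. The promoters of Idi1 and of Hsd17b7, a ketoreductase of cholesterol synthesis that fell (-0.63 ± 0.11, adjusted p = 0.00459) and was picked for display after its sequence had been seen, are shown with CCAAT or ATTGG in capitals (250 bases before to 30 after the start, RefSeq, GRCm38.p6, 5′ to 3′ on the gene's strand).
Idi1 promoter, chr13:8885356-8885635, + strand: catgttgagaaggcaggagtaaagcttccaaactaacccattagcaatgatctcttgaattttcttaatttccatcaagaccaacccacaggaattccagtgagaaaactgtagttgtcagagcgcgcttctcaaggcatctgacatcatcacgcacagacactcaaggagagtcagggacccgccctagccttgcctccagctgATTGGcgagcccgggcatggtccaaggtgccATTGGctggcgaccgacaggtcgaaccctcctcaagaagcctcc
Hsd17b7 promoter, chr1:169969176-169969455, - strand: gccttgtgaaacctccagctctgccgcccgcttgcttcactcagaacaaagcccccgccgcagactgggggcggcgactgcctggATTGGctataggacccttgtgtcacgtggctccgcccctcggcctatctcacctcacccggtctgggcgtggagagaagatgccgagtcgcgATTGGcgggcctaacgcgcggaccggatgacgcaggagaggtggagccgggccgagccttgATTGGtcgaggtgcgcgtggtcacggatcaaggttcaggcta
Idi1 had 2 and Hsd17b7 3 such boxes. CCAAT was found in 75% of the 28 windows of the list and in 83.3% of the 12 windows of members that fell, against 37.4% of all windows, which is a description of the list and not a test.

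Of 44 lysosome and autophagy genes 10 rose, and the medians were 0.38 with oligo 1 and 0.11 with oligo 2. The siRNAs differed for 4 of the 44, each higher with oligo 1. Gla encodes alpha-galactosidase. Gla read 8.58, 9.07 and 8.87 in Mock cells, 8.87, 9.16 and 9.12 in sirEGFP cells, 9.64, 9.90 and 9.97 under oligo 1 and 9.32, 9.30 and 9.30 under oligo 2. All knockdown arrays were above the highest control, and the change was 0.63 ± 0.10 (adjusted p = 0.00213). Subunits of the proton pump that acidifies lysosomes were among them, Atp6v1h with 0.60 ± 0.11 (adjusted p = 0.00666) and Atp6v0d1 with 0.65 ± 0.13 (adjusted p = 0.00901), as was the membrane protein Scarb2 with 0.55 ± 0.12 (adjusted p = 0.0133). The list's mean ran from 0.035 to 0.57 over the 6 knockdown arrays and from -0.081 to 0.13 over the 6 controls, so the groups overlapped. The count of 10 was 6 without Mock array 1, sirEGFP array 3 or oligo 1 array 3. Lysosomal promoters are known for CACGTG E-boxes bound by TFEB, and that of Atp6v0d1 is shown with its CACGTG, which reads the same on both strands, in capitals (same stretch, source and strand as above).
Atp6v0d1 promoter, chr8:105566035-105566314, - strand: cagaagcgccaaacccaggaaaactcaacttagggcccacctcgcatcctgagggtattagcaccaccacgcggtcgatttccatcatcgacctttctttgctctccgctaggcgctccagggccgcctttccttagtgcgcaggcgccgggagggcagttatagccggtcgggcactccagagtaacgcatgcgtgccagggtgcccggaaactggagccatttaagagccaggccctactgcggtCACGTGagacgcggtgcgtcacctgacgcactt
CACGTG was found in 33.3% of the 42 windows of the list and in 44.4% of the 9 windows of members that rose, against 8.26% of windows of genes measured and 7.15% of all promoters. In the windows of all genes called higher the share was 8.22%.

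Mgst1 and Nfe2l2 belong to a wider list. Of 45 glutathione and NRF2 target genes 10 rose and 1 fell, with medians of 0.25 with oligo 1 and 0.12 with oligo 2. Cat, catalase, rose by 0.53 ± 0.073 (adjusted p = 0.000851) and Hmox1, the haem-degrading oxygenase, by 1.05 ± 0.22 (adjusted p = 0.0133), the latter as 1.69 with oligo 1 and 0.42 with oligo 2. The 11 calls became 5 without oligo 1 array 3, 6 without Mock array 2, sirEGFP array 2, oligo 2 array 1 or oligo 2 array 3 and 7 without Mock array 1. Of 28 genes of PPAR signalling and fatty acid oxidation 3 rose: Ppargc1a, Fabp4 and Cpt2, an enzyme of fatty acid import into mitochondria (0.64 ± 0.11, adjusted p = 0.0041). Fabp4 changed by 0.13 with oligo 1 and 1.43 with oligo 2 (limma, adjusted p = 0.00105 for the difference). Without sirEGFP array 1 the count was 5 and without oligo 1 array 2 it was 6. Of 54 genes of oxidative phosphorylation and 49 mitochondrial ribosomal proteins, 2 of each fell, Mrpl18 (-0.66 ± 0.10, adjusted p = 0.00129) and Mrpl3 (-0.69 ± 0.12, adjusted p = 0.00311) among them. Mrpl3 changed by -0.20 with oligo 1 and -1.18 with oligo 2. The oxidative phosphorylation genes, Ndufa2 and Cox7b, lost their calls in 8 and 10 of the 12 fits that left out an array, and the mitochondrial ribosomal count was 4 without oligo 1 array 2.

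Of 46 inflammatory genes and NF-kB targets 12 rose and 1 fell, with a median change of 0.098. The list's mean ran from 0.089 to 0.305 over the 6 knockdown arrays and from -0.04 to 0.106 over the 6 controls, so the groups overlapped. Ccl2, like Ccl7, attracts monocytes. Ccl2 read 11.07, 10.19 and 10.49 in Mock cells, 10.51, 10.10 and 10.45 in sirEGFP cells, 11.37, 11.03 and 11.20 under oligo 1 and 12.36, 12.30 and 12.28 under oligo 2. Oligo 2 stood well above all other arrays, while Mock array 1 lay above oligo 1 array 2, and the pooled change was 1.29 ± 0.13 (adjusted p = 0.000102; 0.73 with oligo 1 and 1.85 with oligo 2). Il6, an interleukin, rose from a low level. Il6 read 5.68, 4.93 and 5.09 in Mock cells, 5.58, 5.67 and 5.24 in sirEGFP cells, 6.27, 6.72 and 5.998 under oligo 1 and 7.14, 6.84 and 7.37 under oligo 2. Its knockdown arrays were all above the controls (1.36 ± 0.15, adjusted p = 0.000147). Vcam1, an adhesion molecule, changed by 0.048 with oligo 1 and 1.08 with oligo 2 (adjusted p = 0.000444 for the difference). The 13 calls became 7 without sirEGFP array 2, oligo 1 array 3 or oligo 2 array 3. Of 52 interferon-stimulated genes 6 rose, including Ddx58, the RNA sensor RIG-I (0.62 ± 0.085, adjusted p = 0.000842), Ifitm3, an antiviral membrane protein (0.58 ± 0.086, adjusted p = 0.00137), and Eif2ak2, the kinase PKR (0.45 ± 0.10, adjusted p = 0.0149). The sirEGFP cells also received a small double-stranded RNA, and in the pooled comparison they make up 3 of the 6 controls. Tlr7, a sensor of single-stranded RNA, changed by 0.19 with oligo 1 and 2.03 with oligo 2 (adjusted p = 1.88e-05 for the difference).

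**Figure D5:**
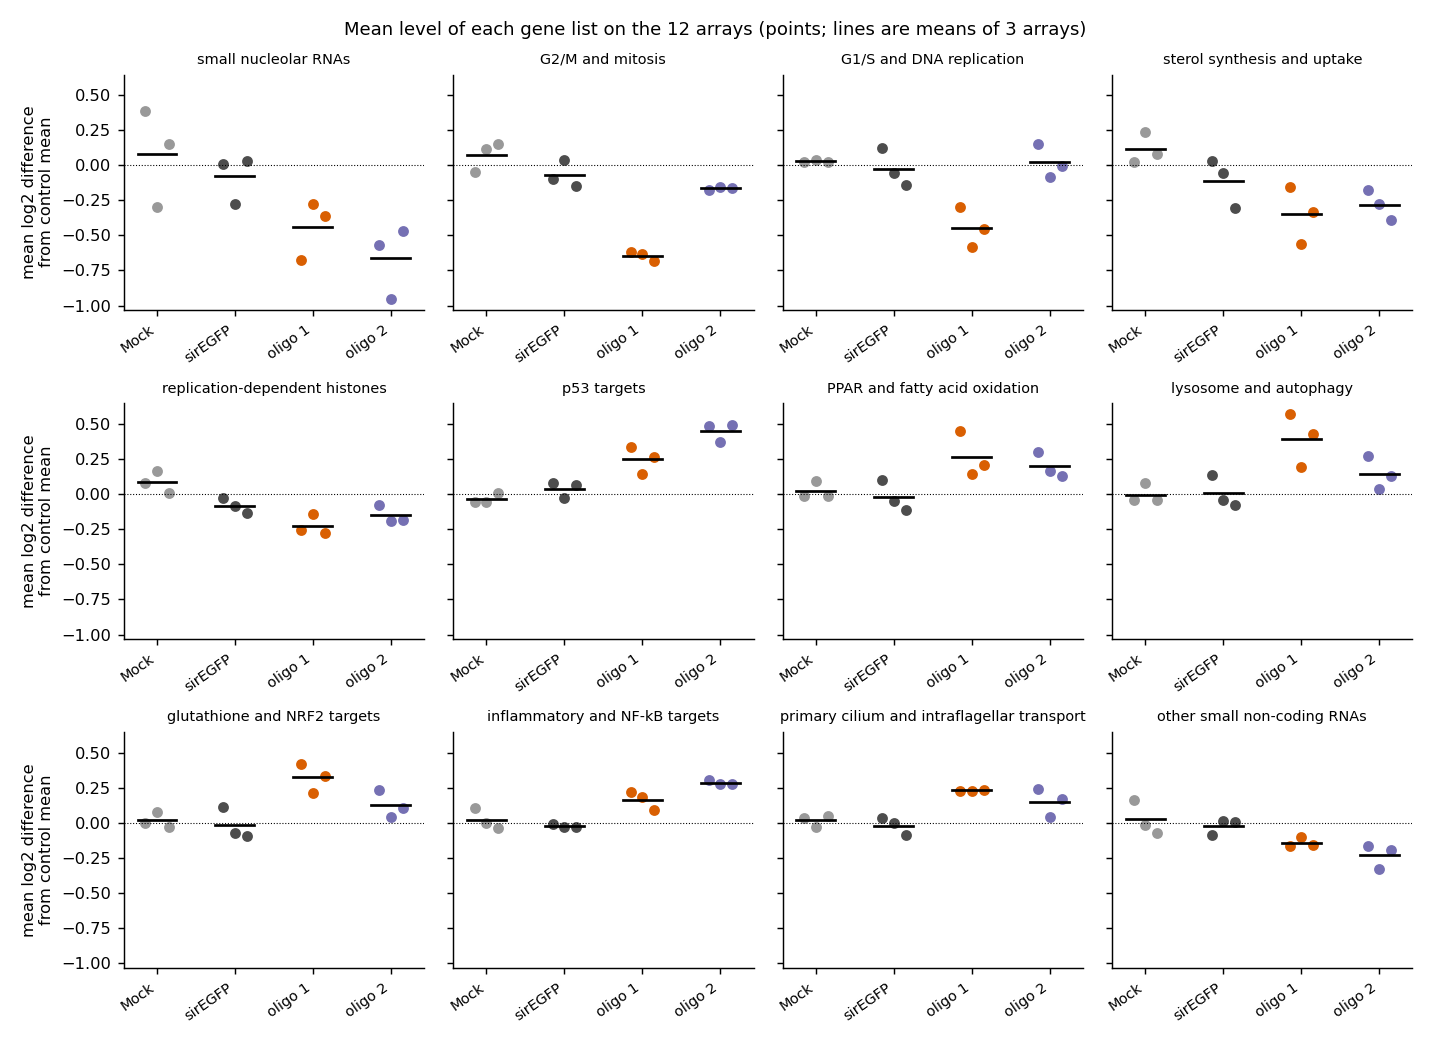
Mean level of 12 gene lists on each of the 12 arrays, as the mean log2 difference from the control mean; points are arrays, lines are means of 3 arrays, and all panels share the vertical axis. The p53 list separates the knockdown arrays from all controls, with oligo 2 highest. In the mitosis list oligo 1 is lowest and oligo 2 lies barely below the controls (-0.155 on oligo 2 array 2, -0.147 on sirEGFP array 3). The snoRNA, sterol, G1/S, histone, lysosome, glutathione, inflammatory and cilium lists overlap between knockdown and control arrays. The lists of PPAR signalling and of other small non-coding RNAs do not.

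The primary cilium is a sensory organelle that resting fibroblasts build. Of 42 genes of the cilium and intraflagellar transport 8 rose, and 6 had all knockdown arrays above all controls. Dync2li1, a light chain of the motor for transport back from the tip, read between 5.43 and 5.75 on the control arrays and between 6.33 and 6.65 on the knockdown arrays. The groups stood well apart, its rise was 0.85 ± 0.082 (adjusted p = 7.65e-05), and it passed the stricter test in 11 of the 12 fits that left out an array. Wdr19, of the transport complex that this motor moves, rose by 0.87 ± 0.12 (adjusted p = 0.000889), Tmem67, of the ciliary transition zone, by 0.69 ± 0.11 (adjusted p = 0.00283), and Ift81, of the transport complex moving outward, by 0.50 ± 0.089 (adjusted p = 0.00437). The list's mean ran from 0.041 to 0.24 over the 6 knockdown arrays and from -0.090 to 0.047 over the 6 controls.

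Of 56 extracellular matrix genes 7 rose. Vcan, the proteoglycan versican, rose by 0.93 ± 0.13 (adjusted p = 0.000889) with all knockdown arrays above the controls, whereas Tnc, tenascin C, changed by 0.15 with oligo 1 and 2.73 with oligo 2 (adjusted p = 1.88e-05 for the difference). The 7 calls became 3 without oligo 1 array 3 and 4 without sirEGFP array 2 or oligo 2 array 3. Of 28 matrix proteases and inhibitors 4 rose, with Mmp19 at 0.76 ± 0.14 and the plasminogen activator Plat at 0.83 ± 0.18 (adjusted p = 0.00479 and 0.014), and the count was 2 without Mock array 2, Mock array 3, sirEGFP array 2, sirEGFP array 3, oligo 1 array 3, oligo 2 array 1 or oligo 2 array 3. Of 39 targets of TGF-beta and YAP 2 rose and 2 fell, with a median change of 0.099. Leaving out single arrays gave between 1 and 7 calls in this list. Ccn2, a matricellular member, fell by 0.87 ± 0.15 (adjusted p = 0.0041). Its knockdown arrays were all below the controls, but barely (8.3562 on oligo 1 array 1, 8.3598 on sirEGFP array 3). Of the 59 RNA splicing factors 8 fell, 6 of them members of the LSM family that binds U6 RNA and decaying messenger RNA (a grouping made after the values were seen). Lsm2 fell by 0.56 ± 0.075 (adjusted p = 0.00075), and the 8 calls became 3 without Mock array 1, oligo 1 array 3 or oligo 2 array 3, 4 without Mock array 2, sirEGFP array 2 or oligo 2 array 2 and 5 without Mock array 3, sirEGFP array 3, oligo 1 array 1 or oligo 2 array 1. Of 45 nuclear pore and transport genes 4 fell, among them Nup85 (-0.51 ± 0.089, adjusted p = 0.00422).

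None of 22 chaperones of the endoplasmic reticulum and none of 38 contractile and cytoskeletal genes was called (limma; 6 and 3 at an unadjusted p under 0.05). The first count was 1 without sirEGFP array 1 and 2 without oligo 1 array 2, and the second 1 without sirEGFP array 1 or oligo 2 array 3 and 2 without oligo 1 array 2. Of 32 proteasome genes Psma1 fell (-0.52 ± 0.11, adjusted p = 0.0133), with -0.89 under oligo 1 and -0.15 under oligo 2. Of 25 heat shock and chaperonin genes the co-chaperone Bag3 rose (0.56 ± 0.10, adjusted p = 0.00641). Without oligo 1 array 2 each of these counts was 2. In the integrated stress response, Psph, of serine synthesis (-0.56 ± 0.11, adjusted p = 0.00967), and Slc7a3, an arginine carrier (-0.56 ± 0.13, adjusted p = 0.0183), fell and Ddit4, an inhibitor of mTORC1, rose (0.41 ± 0.10, adjusted p = 0.0315), out of 31 genes. Slc7a3 and Ddit4 lost the call in 3 and 7 of the 12 fits that left out an array, and the count of 3 was 1 without Mock array 3 or sirEGFP array 2, 5 without Mock array 1 or oligo 1 array 2 and 6 without oligo 1 array 1. Of 38 translation factors Eef1e1, a scaffold of the tRNA ligase complex, fell (-0.46 ± 0.10, adjusted p = 0.0165), and the count was 2 without oligo 1 array 2 or oligo 2 array 3.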

How the data were processed

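The authors deposited 1 log2 value for each probe set on each Affymetrix array, a scale inferred from the range of the numbers. How background, summary and normalization were handled is not given in the sources used here. Limma is named, with no version, in the submitters' processing notes. Of 35512 probe sets, 21789 had 1 gene symbol in the platform annotation, 1621 had several and 12102 none. Symbols were updated by Entrez identifier through RefSeq (GRCm38.p6) for 21698, and 91 kept the annotated symbol. Each of 19938 genes was represented by its brightest probe set on average, which was a choice for the 999 genes with several. The genome build behind the probe sets is not given in the sources used here, so only RefSeq promoter coordinates are printed.

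Groups were fitted in limma 3.58.1 (R 4.3.3) with 4 group means, 8 residual degrees of freedom and Benjamini-Hochberg adjustment over all genes. The comparisons were pooled knockdown against pooled control, each siRNA against the 6 controls, and the siRNAs against each other. Genes named were Ubtf, the 15 highest and 15 lowest of those called for both siRNAs by the weaker change (predicted, clone-named and small RNA genes apart, 5 each way), up to 4 per list by smallest pooled p, and, among genes called in the pooled test and between siRNAs, the 5 highest and 5 lowest differences between siRNAs; the remaining genes called for both siRNAs were added to complete that set. The comparison, gene lists and tests were chosen with earlier results of these data known. The fits were run on simulated data with known changes and noise drawn independently for each gene and array. Of 100 genes changed by 1 with oligo 1 alone, the pooled test called 67 and the stricter test 0. Of 100 genes changed by 0.58 with both siRNAs, the pooled test called 79 and the stricter test 42. Noise shared across genes was not simulated. Promoter motifs were counted in windows of 300 bases for the 15562 measured genes that had one. The replicate numbers paired oligo 1 with oligo 2 in the data, with correlations of deviations of 0.388, 0.294 and 0.115, but not all 4 groups, and no label says what a number shares. Alternatives changed the control group, normalization, probe set rule, model and arrays included. The siRNA sequences were not used here.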

Additional observations from a re-analysis of the deposited data

Results flagged for a closer look

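For 54 of the genes named by rule and called in the pooled test, the siRNAs themselves differed (limma, oligo 1 against oligo 2, adjusted p under 0.05). Values are oligo 1 minus oligo 2 on the log2 scale. Among genes higher in the pooled test, the level was higher with oligo 2, with -0.78 for Txnip, -0.95 for Cp, -0.69 for Ccl7, -0.64 for N4bp2, -1.57 for Cd80, -0.93 for Trp53inp1, -1.28 for Fas, -1.30 for Fabp4 and -0.45 for Nfe2l2. The same order was found with -1.12 for Ccl2, -1.03 for Vcam1, -0.64 for Tap1, -1.85 for Tlr7, -2.58 for Tnc, -0.84 for Plau, -0.88 for Zfp36l1, -1.03 for Nr4a2 and -0.78 for Prrx1. It was also found with -0.81 for Pdgfra, -2.46 for Cd53, -2.06 for Dclk1 and -1.82 for Ranbp3l. It was higher with oligo 1 for the others, with 1.08 for H2bc4, 1.27 for Hmox1, 0.81 for Ogn, 0.80 for Csf1r, 1.82 for Havcr2, 1.38 for Ppef1 and 1.36 for P2ry10b.

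Among genes lower in the pooled test, the level was lower with oligo 1, with -0.60 for Slc4a4, -0.65 for Fancb, -0.45 for Utp15, -0.91 for H4c4, -0.57 for Gins1, -0.53 for Prim2, -0.62 for Prc1, -1.04 for Tpx2 and -0.52 for Rad51ap1. Differences of this sign were also -0.63 for Blm, -0.73 for Psma1, -0.65 for Rbl1, -0.73 for Cdkn2d, -0.43 for Lsm2, -0.71 for Lsm3, -1.20 for Cbx5 and -0.71 for Suv39h2. It was lower with oligo 2 for the others, with 0.66 for Utp14a, 0.98 for Mrpl3, 0.73 for Cox7b, 1.27 for Bnip3, 0.84 for Nars, 0.45 for Hars, 1.36 for Cacul1 and 1.31 for Myct1. Among these genes Tnc, Cd53, a leukocyte membrane protein, and Dclk1, a microtubule-binding kinase, differed most toward oligo 2. Havcr2, an immune receptor, differed most toward oligo 1. This order restates the rule by which they were named.

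In 268 groups of 6 arrays (134 called genes, knockdown and control), 10 had an array set apart from the other 5 by more than Dixon's critical value of 0.625. Chance gives about 1 in 20 where all 6 values come from 1 normal population. Each group here joined both siRNAs or both kinds of control, and the genes had been selected, so that rate need not hold. On the control side these were Cp on Mock array 2 (6.58), Rpa1 on sirEGFP array 3 (9.01), Dgcr8 on sirEGFP array 1 (9.49), Lsm3 on Mock array 1 (10.96) and Ppef1 on sirEGFP array 2 (4.68). On the knockdown side they were Ddit4 on oligo 2 array 1 (6.24), Eif2ak2 on oligo 1 array 2 (9.71), Kpna1 on oligo 1 array 1 (6.89), Asah2 on oligo 1 array 1 (8.40) and Snord52 on oligo 2 array 2 (6.45). No array appeared more than 2 times.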

How the results depend on the processing

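With 3 arrays a group, counts moved with the arrays included. Leaving out each array gave 591 to 1399 genes in the pooled test, 364 to 864 higher, 222 to 535 lower, 7 to 42 for both siRNAs and 328 to 833 between the siRNAs. Direction was compared for the pooled test alone, where 0 genes called in both the main fit and an alternative were opposite. Ubtf ranged from -0.75 to -0.59 in the fits that left out 1 array and passed in each. Leaving out oligo 1 array 2 gave the highest of each of these counts, and leaving out oligo 1 array 3 the lowest for the pooled test, the genes higher and both siRNAs. Leaving out the 3 outermost arrays on the first within-group axis, 8 genes were called for both siRNAs and 211 between them. With array weights, which gave oligo 1 array 3 a weight of 8.92 and the other arrays 0.416 to 1.67, the counts were 2778, 1666 higher, 1112 lower, 376 for both and 3164 between. A fit of 2 groups, in which differences between siRNAs count as spread, gave 489, 320 higher and 169 lower.

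With sirEGFP as the control the counts were 385, 241 higher, 144 lower and 7 for both, and Ubtf (-0.58, adjusted p = 0.0526) did not pass. With Mock as the control 243 were lower. Centring arrays on their median gave 23 for both siRNAs. Added after the data had been seen, leaving out oligo 1 arrays 1 and 2 gave 474, 286 higher and 188 lower; controls not shared gave 10 and 4 for both; and 354 genes were both called in the pooled test and separated on all arrays. The causes of these changes were not tested. Quantile normalization, leaving out the dimmest genes, averaging probe sets and a trended robust prior kept the counts within 1.5 times.

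Changes of sign occurred in markers near 0: Cldn3 when single arrays were left out (-0.17 to 0.0030, the last without sirEGFP array 3), Cebpa (-0.0016), Lpl (-0.0034), Tyrobp (-0.020) and Esam (-0.058) without those 3 outermost arrays, Tyrobp (-0.010) and Esam (-0.015) with array weights, Tyrobp (-0.010) and Esam (-0.021) with sirEGFP as the control, Myh1 (0.0082) and Cdh1 (0.037) with Mock, and Tyrobp (-5e-04) and Esam (-0.034) without oligo 1 arrays 1 and 2.

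Over the 4 groups, 12 of 18 same-number pairs correlated above 0.1 in their deviations (range -0.24 to 0.55, median 0.17, against a median of -0.13 for other pairs), and 9 of 12 arrays correlated best with one of their own number, which is a hint of pairing. The rule that each pair exceed 0.1 was met for oligo 1 with oligo 2 and sirEGFP with oligo 2, and not for Mock with any group or sirEGFP with oligo 1. With the number as a replicate block the pooled test called 1530 genes (972 higher), the test for both siRNAs 90 and that between siRNAs 1094, among them all 732 called without the block.

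The deposited values give no signal over background, so a low level cannot be told from none.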
